A study of Mus musculus with 18 samples.

Results

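The genes described here are the cadherins and the non-clustered protocadherins of mouse cortical neurons, taken as the protein-coding rows of the count table whose symbol is Cdh or Pcdh followed by a number, with or without a final x. There were 35 such genes among 37310 gene rows, and 28 of them passed the filter on low counts that left 15433 genes to test. The neurons were cultured from the cortex of wild-type (WT) mice or of mice without Fmr1 (KO); Fmr1 encodes FMRP, which binds RNA, and its silencing causes fragile X syndrome. After 7 days in culture they received vehicle (DMSO) or JQ1, an inhibitor of the BET bromodomain proteins that read acetylated histones, for 24 h. The 4 groups of 3 libraries were WT DMSO, KO DMSO, WT JQ1 and KO JQ1. The labels give no strain, age or sex of the animals, no dose of JQ1, and do not say whether the 3 libraries of a group came from separate cultures, so p-values measure the spread between these libraries, which may be technical. Another 6 samples treated with THZ1 were not analysed here.

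Cadherins are calcium-dependent adhesion proteins that join cells through extracellular repeats, mostly by binding the same cadherin on the facing cell. Classical cadherins of type I and type II bind catenins through the cytoplasmic tail and so link to actin; in the cortex different neurons carry different type II members, which take part in layering and in matching synaptic partners. The delta-1 and delta-2 protocadherins are a separate class of single genes with weaker adhesion and their own tails, several of which recruit the WAVE complex, a regulator of actin branching. They are distinct from the clustered protocadherin genes, which the rule leaves out.

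Fmr1 itself lay at 124, 119 and 119 CPM (read counts scaled to a common library total) in WT DMSO against 21.5, 22.2 and 29.4 in KO DMSO, and at 145, 154 and 135 in WT JQ1 against 26.02, 27.6 and 34.6 in KO JQ1, so its transcript was low but present in all 6 KO libraries. Library totals ran from 21643592 to 134110850 gene counts, and the 35 genes together held 0.19% to 0.222% of them. The 8 pan-neuronal markers (such as Tubb3 and Map2) summed to 9613 to 11270 CPM over the 12 libraries, against 2.54 to 5.33 for 8 endothelial, 6.61 to 12.2 for 8 microglial and 0.0897 to 0.474 for 6 epithelial markers. Both KO libraries numbered 3 had 4.29 and 4.34 CPM of the X-inactivation RNA Xist, against at least 230.5 in the other 10 libraries. They also had the highest levels of the Y-linked Ddx3y and Eif2s3y. Of the X-linked members, the genotype difference of Pcdh11x in DMSO and the KO response of Pcdh19 to JQ1 are therefore given with and without them. In bulk cultures like these, a loss of cells that carry a gene and a loss of its RNA per cell cannot be told apart.

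Levels were set first within the class. Scaled per kilobase of exon, the most abundant members over the 12 libraries were Cdh2 (N-cadherin, the main classical cadherin of neural tissue) at 36.4 CPM per kb, Pcdh8 at 34.6, Cdh13 (T-cadherin, held in the membrane by a lipid anchor and without a cytoplasmic tail) at 30.4 and Pcdh1 at 22.4. Pcdh19, Cdh4, Pcdh10 and Pcdh17 followed at 15.7, 13.4, 12.9 and 10.6 CPM per kb. The type II cadherins lay lower and formed a graded series, from Cdh8 at 8.45 and Cdh11 at 5.80 CPM per kb down to Cdh7 at 0.612. Pcdh15 stood at 0.373 CPM per kb, and Cdh15, Cdh17 and Cdh23 at 0.138, 0.0346 and 0.0279.

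The 7 members that did not pass the filter were Cdh1 (E-cadherin), Cdh3 (P-cadherin), Cdh5 (VE-cadherin of endothelium), Cdh16 (a kidney cadherin), Cdh19 (a glial and neural crest cadherin), Cdh26 and Pcdh12 (an endothelial protocadherin). Their highest level in any library was 0.22 CPM, for Cdh19, and their counts summed over all libraries ran from 1 for Cdh16 to 59 for Cdh19. Among the 28 tested, Cdh15, Cdh17 and Cdh23 had at most 1.39 CPM, with 288, 91 and 282 counts in total, so their changes carry large errors.

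**Figure D1:**
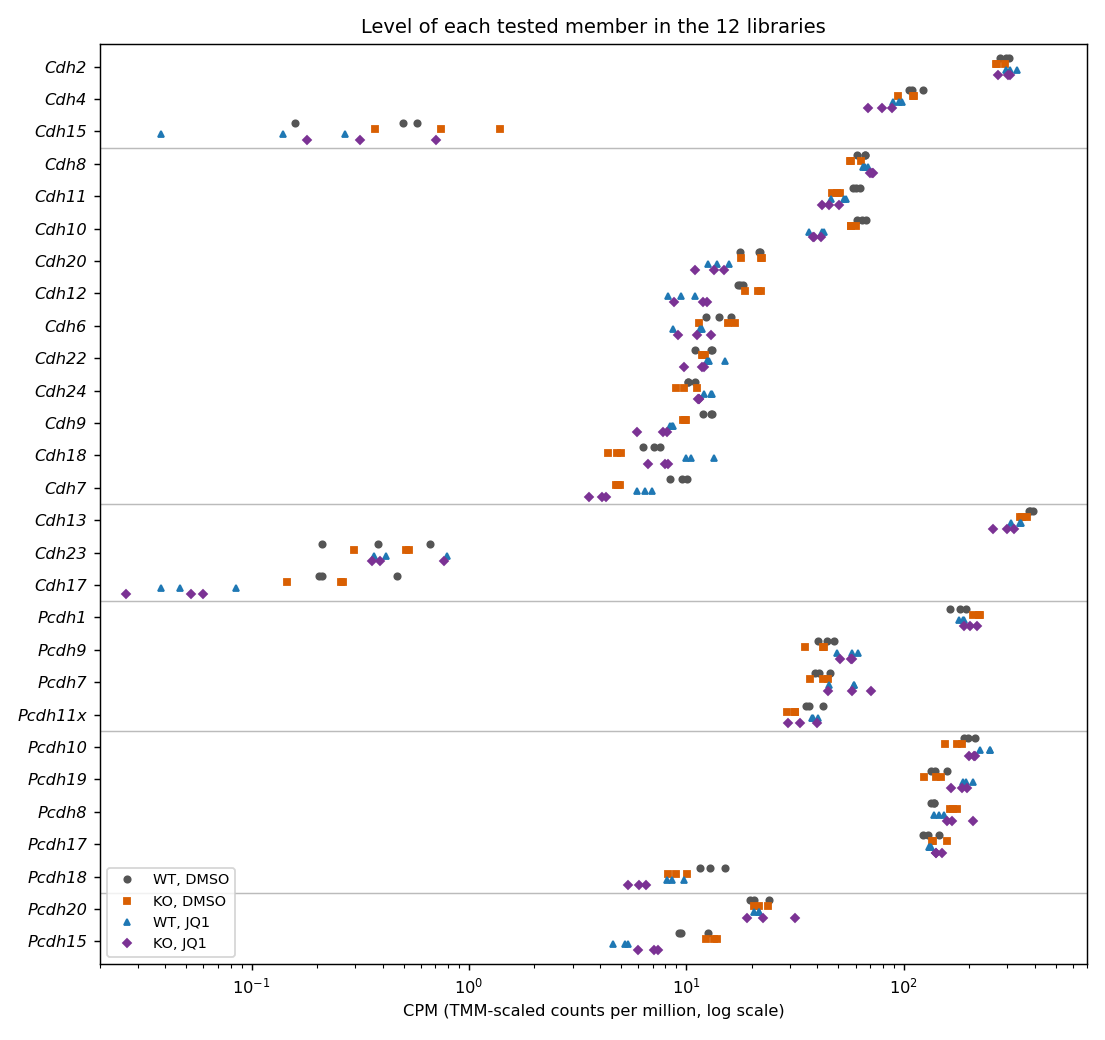
Level of each of the 28 tested cadherins and protocadherins in the 12 libraries, in TMM-scaled CPM on a log axis; each mark is 1 library, its shape and colour give the group, and grey lines part the structural classes in the order type I, type II, atypical, delta-1, delta-2 and other. Cdh13 and Cdh2 lie near 300 CPM, and Cdh15, Cdh23 and Cdh17 at or below 1.39 CPM.

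The first comparison asked which of these genes differ in level between KO and WT neurons without drug. In DMSO, 9 of the 28 tested members differed at an adjusted p under 0.05 (edgeR quasi-likelihood test, Benjamini-Hochberg adjustment over 15433 genes), 2 higher and 7 lower in KO. Of all tested genes 15.0% differed, 7.21% being higher and 7.76% lower. The members' count ran from 4 to 10 when 1 library was left out, with 4 called without WT DMSO replicate 1 (7.39% of all genes) and without KO DMSO replicate 1 (5.77%). The 7 lower members included 4 type II cadherins (Cdh7, Cdh18, Cdh9 and Cdh11) and 3 protocadherins (Pcdh18, Pcdh11x and Pcdh10), and the 2 higher ones were Pcdh8 and Pcdh1. No called member reached a 2-fold change (Cdh15, at few counts and not called, had 1.06 on the log2 scale with an SE of 0.59), and the median change of the 28 was -0.08 on the log2 scale against -0.01 for all genes. All log2 changes are relative to the bulk of the transcriptome, because libraries were scaled by TMM (trimmed mean of M-values), and alternatives named beside a call are refits with 1 processing choice changed. The KO and WT libraries did not overlap for 12 of the 28 members, where 37.6% of all genes showed no overlap.

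Cdh7, a type II cadherin, had the largest difference of the called members. It stood at 10.1, 8.40 and 9.54 CPM in WT DMSO and 4.74, 4.84 and 4.97 in KO DMSO, so every KO library was well under the lowest WT library. Cdh7 was 1.92-fold lower in KO DMSO, a log2 change of -0.94 (SE 0.10, adjusted p = 0.000136). Under JQ1 it was 6.92, 5.92 and 6.44 CPM in WT and 4.25, 3.58 and 4.10 in KO, again without overlap. Cdh7 was 1.62-fold lower in KO JQ1, a log2 change of -0.70 (SE 0.10, adjusted p = 0.00198).

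Cdh18, a type II cadherin found mainly in the nervous system, lay at 7.06, 6.29 and 7.54 CPM in WT DMSO and 4.82, 4.998 and 4.38 in KO DMSO. Its level was 1.47-fold lower in KO DMSO, a log2 value of -0.55 (SE 0.12, adjusted p = 0.00991). In JQ1 the levels were 9.999, 10.5 and 13.4 CPM in WT and 8.26, 7.999 and 6.67 in KO. Its level was 1.44-fold lower in KO JQ1, a log2 value of -0.53 (SE 0.11, adjusted p = 0.0124). In both media the KO libraries were all under the WT libraries, and the KO JQ1 libraries reached the range of untreated WT neurons.

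Cdh9, a type II cadherin known from hippocampal mossy fibre synapses, lay at 12.9, 11.95 and 13.1 CPM in WT DMSO and 9.61, 9.84 and 9.92 in KO DMSO, with no overlap. On the log2 scale Cdh9 moved by -0.37 (SE 0.09, adjusted p = 0.0181) and was 1.29-fold lower in KO DMSO. In JQ1, where it read 8.60, 8.38 and 8.68 CPM in WT and 5.94, 7.80 and 8.14 in KO, the change of -0.22 (SE 0.10) did not pass (adjusted p = 0.162) although the libraries did not overlap. The DMSO call of Cdh9 was lost without WT DMSO replicate 1 or 3 or KO DMSO replicate 1 or 2.

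Cdh11, a type II cadherin of mesenchyme and of neurons, read 62.7, 58.7 and 60.4 CPM in WT DMSO and 46.8, 50.8 and 49.3 in KO DMSO. Cdh11 was 1.24-fold lower in KO DMSO, a log2 change of -0.31 (SE 0.07, adjusted p = 0.0103). Its JQ1 libraries, at 54.02, 53.1 and 46.5 CPM in WT and 42.1, 50.2 and 45.4 in KO, overlapped (adjusted p = 0.153), and the DMSO call was lost without KO DMSO replicate 1. The other 7 tested type II members (Cdh6, Cdh8, Cdh10, Cdh12, Cdh20, Cdh22 and Cdh24) had log2 differences between -0.15 and 0.22 in DMSO, and none passed.

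Of the delta-2 protocadherins, Pcdh18 was lower and Pcdh8 higher in KO. Pcdh18 read 12.8, 11.6 and 15.1 CPM in WT DMSO and 8.25, 8.93 and 10.1 in KO DMSO. Its level was 1.45-fold lower in KO DMSO, a log2 value of -0.53 (SE 0.11, adjusted p = 0.00758). The JQ1 libraries gave 8.56, 8.14 and 9.76 CPM in WT and 5.38, 6.03 and 6.55 in KO, with no overlap either. On the log2 scale Pcdh18 moved by -0.54 (SE 0.12, adjusted p = 0.0125) and was 1.45-fold lower in KO JQ1. Without KO JQ1 replicate 1 this adjusted p was 0.051.

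Pcdh8, also called arcadlin, is induced by neuronal activity and promotes the internalisation of N-cadherin at synapses. Its levels were 138, 133 and 138 CPM in WT DMSO and 176, 162 and 168 in KO DMSO, every KO library being the higher. The fitted log2 value was 0.31 (SE 0.08, adjusted p = 0.0204), 1.24-fold higher in KO DMSO. In JQ1 they were 146, 138 and 154 CPM in WT and 208, 167 and 159 in KO, where KO JQ1 replicate 1 stood well above the other libraries. Pcdh8 was 1.22-fold higher in KO JQ1, a log2 change of 0.29 (SE 0.08, adjusted p = 0.0391). Without that replicate the change was 0.16 (adjusted p = 0.126); the call was also lost without WT DMSO replicate 1 or 2, without WT JQ1 replicate 1 or 2, and in a fit to the compared groups alone. The DMSO call was lost without WT DMSO replicate 1 or 2 or KO DMSO replicate 1.

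Pcdh1, a delta-1 protocadherin, read 163, 182 and 194 CPM in WT DMSO and 209, 223 and 222 in KO DMSO. Pcdh1 was 1.21-fold higher in KO DMSO, a log2 change of 0.28 (SE 0.06, adjusted p = 0.0116). In JQ1 it read 179.8, 188 and 189 CPM in WT and 203, 217 and 190.2 in KO, with adjacent ranges and a change that did not pass (0.13, adjusted p = 0.203), and the DMSO call was lost without WT DMSO replicate 1. When libraries were scaled to the added ERCC spike-in RNAs, which moved the median of all genes to -0.82 in this contrast, the signs of Pcdh8 and Pcdh1 in DMSO turned to -0.51 and -0.50. Relative to that median they remained higher, as a shift shared by nearly all genes would leave them.

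Pcdh10 and Pcdh11x passed by the smallest margins. Pcdh10, a delta-2 protocadherin with a described part in activity-dependent synapse elimination, read 197, 189 and 214 CPM in WT DMSO and 154, 175 and 185 in KO DMSO. Its level was 1.17-fold lower in KO DMSO, a log2 value of -0.22 (SE 0.07, adjusted p = 0.0429). The call was lost in 10 of 18 alternatives, among them those without any 1 of the 3 WT DMSO libraries or without KO DMSO replicate 1 or 2. The X-linked delta-1 protocadherin Pcdh11x read 36.7, 35.4 and 42.6 CPM in WT DMSO and 31.5, 28.9 and 31.5 in KO DMSO. On the log2 scale Pcdh11x moved by -0.32 (SE 0.10, adjusted p = 0.0389) and was 1.25-fold lower in KO DMSO. Without both KO libraries numbered 3 the change was -0.34 and the adjusted p 0.0565, and the call was lost in 8 of 18 alternatives, among them those without any 1 of the 6 DMSO libraries. The JQ1 libraries of Pcdh10 (250.2, 249 and 225 CPM in WT, 199, 211 and 213 in KO) did not overlap but missed the threshold (adjusted p = 0.06), and those of Pcdh11x (37.96, 40.4 and 38.2 and 39.9, 29.2 and 33.1) overlapped.

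Under JQ1, 4 of the 28 members differed between genotypes, where 8.97% of all genes did (4.85% higher, 4.13% lower): Pcdh8 was higher in KO and Cdh7, Cdh18 and Pcdh18 lower. The same 4 had the same direction in DMSO, and 5 members passed in DMSO alone. Libraries of the genotypes did not overlap for 13 members, where 27.0% of all genes showed no overlap. DMSO and JQ1 comparisons share no library, and over the 28 members their log2 differences had a Pearson r of 0.909 and a Spearman rho of 0.853, with the same sign for 25; genes are not independent replicates, and same-numbered libraries may share a culture. Pcdh15, a component of the hair cell tip link, ranked just outside the threshold both times, with 0.34 (adjusted p = 0.0547) in DMSO and 0.41 (adjusted p = 0.0517) in JQ1.

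**Figure D2:**
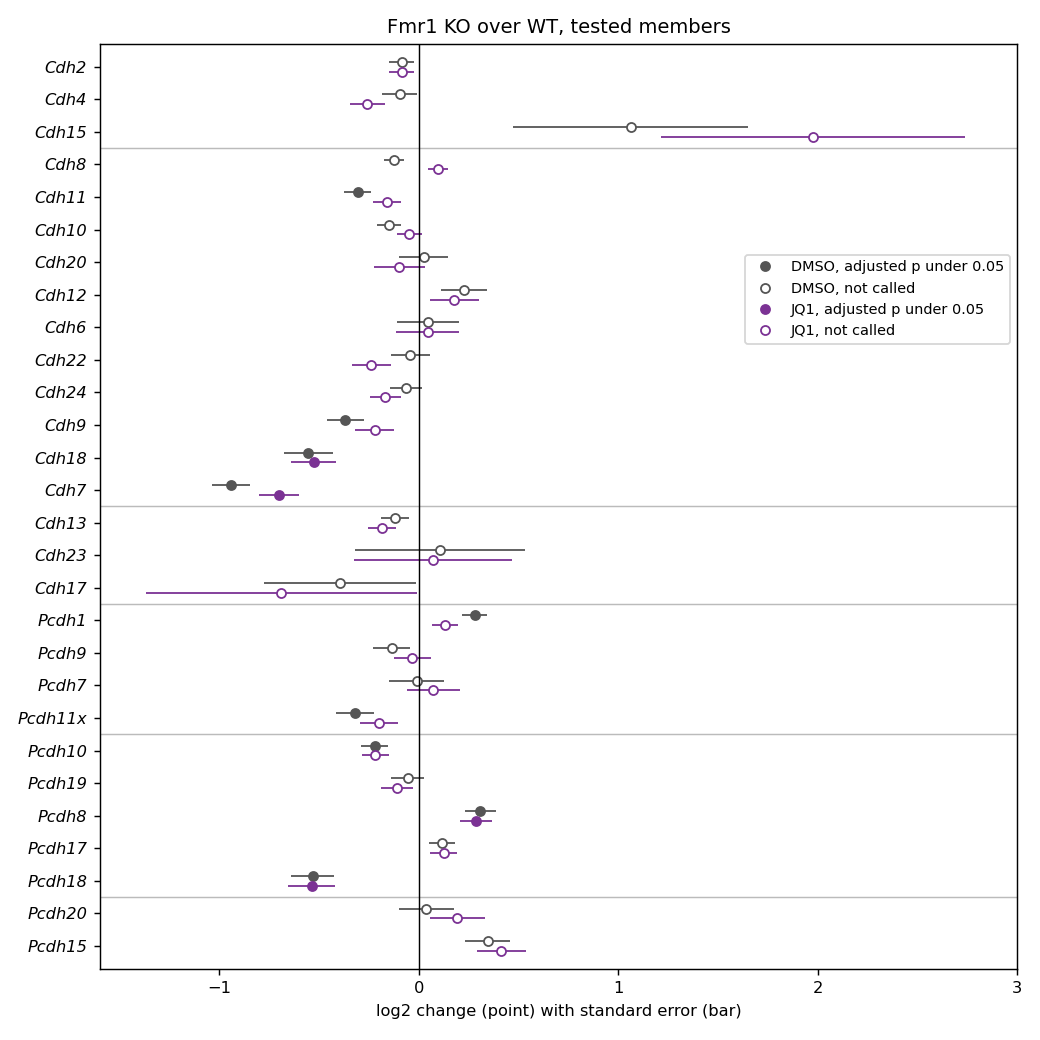
Difference of KO from WT on the log2 scale (horizontal axis, point; bar, standard error) for the 28 tested members in DMSO (grey) and in JQ1 (purple); filled points have an adjusted p under 0.05. Cdh7, Cdh18 and Pcdh18 are filled on the left and Pcdh8 on the right in both media, while Cdh15, at low counts, has the widest bars; with ERCC scaling Pcdh8 and Pcdh1 in DMSO lie left of 0.

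The authors' deposited table of KO against WT, made with DESeq2, gave an adjusted p for 25 of the members. It called 4 higher and 7 lower. All 9 members called here in DMSO were called there in the same direction, with authors' log2 values such as -0.75 for Cdh7, -0.42 for Pcdh18 and 0.31 for Pcdh8, and the authors' deposited table also called Cdh12 (0.21) and Pcdh15 (0.29) higher. Both results come from the same experiment, so they are not independent. Some deposited values were smaller than those here, as for Cdh7 (-0.94 here) and Pcdh18 (-0.53 here). Whether the authors' fit pulled values towards 0 was not examined.

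Cell type marker lists were read in the same contrast, in which 15.0% of all genes were called. In DMSO 5 of 8 deep-layer projection neuron markers were lower and 1 higher in KO, their sum being 518 to 561 CPM in WT and 373 to 419 in KO. Of 8 Cajal-Retzius markers 5 were lower and 1 higher, with sums of 208 to 316 and 253 to 308 and a median log2 change of -1.21. Reln and Calb2 stand both in that list and in the inhibitory neuron list. Of 12 inhibitory neuron markers 7 were higher and 0 lower (sums 650.3 to 860.0 in WT, 879 to 984 in KO), 2 of 10 astrocyte markers were lower (1413 to 1711 against 981 to 1330.0), and of the 8 fibroblast and pericyte markers 2 were lower and 1 higher (29.1 to 38.1 against 15.2 to 18.7, most of it Dcn). Opposite to its sum, the fibroblast and pericyte list had a median log2 change of 0.52. With ERCC scaling 6 of the 7 inhibitory neuron markers fell below 0. Of 8 upper-layer markers 4 were higher and 0 lower, also below 0 with that scaling, and of 10 progenitor markers 4 were lower and 0 higher. No marker of these lists had a mean under 0.1 CPM. Their part in the cadherin differences was not tested.

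The second question was how JQ1 changes these genes. In WT neurons 17 of the 28 members passed, 6 higher and 11 lower than in DMSO, where 55.1% of all tested genes passed (25.9% higher, 29.3% lower). In KO neurons 16 passed, 6 higher and 10 lower, where 57.1% did (27.7% higher, 29.4% lower). Both counts of lower members include Cdh17, which passed the filter on low counts only through DMSO libraries. The libraries of the 2 treatments did not overlap for 17 members in WT (62.6% of all genes) and 16 in KO (60.7%). The members' shares were near those of all genes. The medians were -0.01 in WT and -0.09 in KO, against -0.00 and 0.00 for all genes, and the median absolute change was 0.32 in WT and 0.34 in KO against 0.26 for all genes in each.

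The type II cadherins and the delta protocadherins showed different counts. Of 11 tested type II members, 6 fell and 2 rose in WT, and 5 fell and 2 rose in KO, with medians of -0.38 and -0.30. Of the 9 delta protocadherins, 4 rose (Pcdh7 and Pcdh9 of delta-1, Pcdh10 and Pcdh19 of delta-2) and 1 fell (Pcdh18), in each genotype. Summed over the class, delta-2 levels ranged from 589.8 to 669 CPM in WT DMSO against 711 to 736 in WT JQ1, and from 598 to 652 in KO DMSO against 705 to 729.5 in KO JQ1. Summed type II levels ranged from 288 to 301 CPM in WT DMSO against 234.5 to 251 in WT JQ1, and from 255 to 275 in KO DMSO against 223 to 243 in KO JQ1. In these 4 pairs of delta-2 and type II sums the libraries did not overlap. Summed delta-1 levels did overlap in both genotypes. They ranged from 281 to 329.7 CPM in WT DMSO against 322.2 to 349.1 in WT JQ1. In KO they ranged from 325.6 to 340 CPM in DMSO against 319 to 370.7 in JQ1. The WT rises of the 4 protocadherins are relative to other transcripts and turn below 0 with ERCC scaling, as given further on. The difference between the classes was not tested.

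Among the type II members Cdh12, a brain cadherin, was the one with the largest fall above 1 CPM. It read 17.3, 17.6 and 18.1 CPM in WT DMSO and 9.46, 10.9 and 8.26 in WT JQ1, and 18.6, 21.4 and 22.1 in KO DMSO and 8.73, 11.9 and 12.5 in KO JQ1. Cdh12 was 1.81-fold lower with JQ1 in WT, a log2 change of -0.86 (SE 0.12, adjusted p = 4.02e-05). The KO change of Cdh12 was -0.90 (SE 0.12, adjusted p = 1.79e-05). Every JQ1 library was under every DMSO library of its genotype.

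Cdh10, which is enriched in cortical neurons and at the blood-brain barrier, read 61.2, 67.4 and 64.6 CPM in WT DMSO and 41.9, 43.02 and 36.5 in WT JQ1, and 57.3, 60.1 and 56.9 in KO DMSO and 38.2, 38.5 and 41.7 in KO JQ1. Its level was 1.58-fold lower with JQ1 in WT, a log2 value of -0.66 (SE 0.06, adjusted p = 9.54e-07). Cdh10 changed by -0.56 (SE 0.06, adjusted p = 3.76e-06) in KO. Its adjusted p was the smallest of the 28 members in each genotype. Cdh9 fell as well, from the DMSO values given above to 8.60, 8.38 and 8.68 CPM in WT and 5.94, 7.80 and 8.14 in KO. On the log2 scale Cdh9 moved by -0.57 (SE 0.09, adjusted p = 0.000165) and was 1.48-fold lower with JQ1 in WT. In KO the log2 change was -0.42 (SE 0.09, adjusted p = 0.0017).

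Cdh7 fell from its DMSO levels to 6.92, 5.92 and 6.44 CPM in WT and 4.25, 3.58 and 4.10 in KO, so that the KO JQ1 libraries were the lowest of the 12. Cdh7 was 1.46-fold lower with JQ1 in WT, a log2 change of -0.54 (SE 0.10, adjusted p = 0.000248). The KO change of Cdh7 was -0.30 (SE 0.10, adjusted p = 0.0197). Without KO JQ1 replicate 2, or without both KO libraries numbered 3, the KO change of Cdh7 no longer passed. Cdh20 fell by 0.53 in WT and by 0.65 in KO on the log2 scale, without overlap. Cdh11 fell by 0.24 in WT (adjusted p = 0.00911) and had a change of -0.09 in KO (adjusted p = 0.278).

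Cdh18 went the other way. It rose from 7.06, 6.29 and 7.54 CPM to 9.999, 10.5 and 13.4 in WT, and from 4.82, 4.998 and 4.38 to 8.26, 7.999 and 6.67 in KO. Its level was 1.59-fold higher with JQ1 in WT, a log2 value of 0.67 (SE 0.12, adjusted p = 0.000245). Cdh18 changed by 0.70 (SE 0.12, adjusted p = 0.000184) in KO. It was the member with the largest rise in both genotypes. Cdh24 read 10.9, 10.2 and 10.2 CPM in WT DMSO and 13.1, 13.03 and 12.04 in WT JQ1, a rise of 0.29 (SE 0.08, adjusted p = 0.00696). In KO it read 9.78, 8.97 and 11.2 CPM in DMSO and 11.4, 11.4 and 11.3 in JQ1, and the change of 0.19 missed the threshold (adjusted p = 0.0555).

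Cdh8, the type II member of highest level, read 66.5, 60.8 and 66.3 CPM in WT DMSO and 68.3, 66.6 and 65.1 in WT JQ1, where the groups overlapped (0.05, adjusted p = 0.446). In KO it read 57.5, 63.3 and 56.9 CPM in DMSO and 69.9, 71.6 and 72.4 in JQ1, without overlap. In KO the log2 change was 0.27 (SE 0.05, adjusted p = 0.000444). Cdh6 and Cdh22 passed in neither genotype: Cdh6 had -0.38 in both, with adjusted p of 0.0587 and 0.0516, and Cdh22 had 0.11 and -0.09.

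Type I cadherins gave 1 call in each genotype. Cdh2 read 277, 296 and 305 CPM in WT DMSO, 309.5, 332 and 295 in WT JQ1, 266, 292 and 269 in KO DMSO and 273, 309 and 301 in KO JQ1. Its ranges overlapped in every comparison, and the change with JQ1 was 0.09 in each genotype, with a 95% interval from -0.04 to 0.23 in WT and the same bounds in KO. Cdh4 (R-cadherin) fell by 0.25 in WT and by 0.42 in KO on the log2 scale, the WT call being lost without WT DMSO replicate 3 or WT JQ1 replicate 1 or 3. Cdh15 (M-cadherin, known from muscle) passed in no comparison; it ran from 0.0384 to 1.39 CPM. Of 10 skeletal muscle genes, looked up after its values were seen, 6 had means under 0.1 CPM, Myod1, Myog and Myf5 among them. Of the 4 that could be tested, 1 was higher in KO in both media, and 1 in WT and 3 in KO fell with JQ1. The 10 summed to 6.03 to 6.59 CPM in WT DMSO, 7.75 to 9.25 in KO DMSO, 3.38 to 4.48 in WT JQ1 and 4.198 to 5.59 in KO JQ1, and their part in the Cdh15 values was not tested.

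Among the atypical members, Cdh13, by CPM the highest of all 35, read 383, 395 and 376 CPM in WT DMSO and 343, 346 and 312 in WT JQ1, and 342, 369.5 and 349 in KO DMSO and 258, 322 and 299.6 in KO JQ1. The fitted log2 value was -0.20 (SE 0.07, adjusted p = 0.0216), 1.15-fold lower with JQ1 in WT. The KO change of Cdh13 was -0.27 (SE 0.07, adjusted p = 0.00415). In each genotype the JQ1 libraries lay under the DMSO libraries. The WT call was lost on leaving out any of 4 libraries (WT DMSO replicate 1 or 2, WT JQ1 replicate 1 or 3). Cdh17, the liver-intestine cadherin, had 7, 8 and 17 counts in WT DMSO and 2, 11 and 1 in WT JQ1, and 8, 17 and 14 counts in KO DMSO and 2 in each KO JQ1 library. It passed with fitted changes of -2.08 (SE 0.47) and -2.38 (SE 0.55), from few reads. Cdh17 passed the filter on low counts only through DMSO libraries, which reached 0.468 CPM in WT and 0.263 in KO. No JQ1 library exceeded 0.0846 CPM, so the filter itself favoured a fall. Cdh23, the tip link partner of Pcdh15, did not pass (0.14 in WT, 0.11 in KO).

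Members removed by the filter were read at very low counts only. Cdh19 had 3, 7 and 8 counts in WT DMSO against 0, 0 and 1 in WT JQ1, and 12, 10 and 11 in KO DMSO against 2, 3 and 2 in KO JQ1. Cdh26 had 4, 7 and 5 counts in WT DMSO against 1, 1 and 0 in WT JQ1, and 6, 10 and 7 in KO DMSO against 3, 1 and 0 in KO JQ1. In the fit without a filter both fell with JQ1 in each genotype (adjusted p = 8.5e-05 and 0.00815 for Cdh19, 0.000621 and 0.0149 for Cdh26). Cdh1 had 0, 1 and 0 counts in WT DMSO against 7, 9 and 1 in WT JQ1 and passed as higher there (adjusted p = 0.0415), but not in KO (adjusted p = 0.349).

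Of the delta-1 protocadherins, Pcdh9 read 40.4, 44.4 and 47.97 CPM in WT DMSO and 57.7, 61.5 and 49.5 in WT JQ1, and 42.7, 42.98 and 35.1 in KO DMSO and 57.7, 57.1 and 51.1 in KO JQ1, with no overlap in either genotype. Pcdh9 was 1.28-fold higher with JQ1 in WT, a log2 change of 0.36 (SE 0.09, adjusted p = 0.00472). Pcdh9 changed by 0.46 (SE 0.09, adjusted p = 0.000669) in KO. Pcdh7 read 40.7, 39.2 and 45.6 CPM in WT DMSO and 58.8, 58.99 and 45.2 in WT JQ1, and 42.5, 44.7 and 37.2 in KO DMSO and 70.5, 57.6 and 44.6 in KO JQ1. Its level was 1.31-fold higher with JQ1 in WT, a log2 value of 0.39 (SE 0.14, adjusted p = 0.0259). In KO the log2 change was 0.47 (SE 0.13, adjusted p = 0.00789). In both genotypes the JQ1 library numbered 3 fell within the DMSO range, so the groups overlapped, and the WT call was lost without WT DMSO replicate 1 or 2 or WT JQ1 replicate 1 or 2. Pcdh1 and Pcdh11x passed in neither genotype.

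Of the delta-2 protocadherins, Pcdh19, an X-linked gene mutated in a female-limited epilepsy, read 139, 133 and 158 CPM in WT DMSO and 187, 208 and 192 in WT JQ1, and 124, 148 and 141 in KO DMSO and 164, 196 and 185 in KO JQ1. On the log2 scale Pcdh19 moved by 0.45 (SE 0.08, adjusted p = 0.000328) and was 1.37-fold higher with JQ1 in WT. The KO change of Pcdh19 was 0.40 (SE 0.08, adjusted p = 0.000812). Without both KO libraries numbered 3 the KO change was 0.40 (adjusted p = 0.00724). Between KO and WT, Pcdh19 had -0.06 in DMSO and -0.11 in JQ1. Neither passed, here or under any alternative, ERCC scaling left aside. Pcdh10 rose from 197, 189 and 214 CPM to 250.2, 249 and 225 in WT and from 154, 175 and 185 to 199, 211 and 213 in KO. Pcdh10 was 1.21-fold higher with JQ1 in WT, a log2 change of 0.27 (SE 0.07, adjusted p = 0.00359). Pcdh10 changed by 0.28 (SE 0.07, adjusted p = 0.00307) in KO.

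Pcdh18 fell, from its DMSO levels to 8.56, 8.14 and 9.76 CPM in WT and 5.38, 6.03 and 6.55 in KO, without overlap. Its level was 1.51-fold lower with JQ1 in WT, a log2 value of -0.60 (SE 0.11, adjusted p = 0.000409). In KO the log2 change was -0.60 (SE 0.11, adjusted p = 0.000442). Pcdh8 and Pcdh17, the latter a protocadherin of presynaptic assembly, passed in neither genotype: Pcdh8 had 0.10 in WT and 0.07 in KO, and Pcdh17 had -0.00 and 0.01, with 95% intervals from -0.14 to 0.14 and from -0.14 to 0.15.

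Of the other protocadherins, Pcdh15 had the largest fall of any member above 1 CPM. It read 9.23, 9.40 and 12.6 CPM in WT DMSO and 5.21, 5.41 and 4.58 in WT JQ1, and 12.3, 13.4 and 13.8 in KO DMSO and 7.44, 7.09 and 5.98 in KO JQ1, with every JQ1 library under every DMSO library. The fitted log2 value was -1.01 (SE 0.12, adjusted p = 9.28e-06), 2.02-fold lower with JQ1 in WT. The KO change of Pcdh15 was -0.94 (SE 0.12, adjusted p = 9.75e-06). Pcdh20 read 23.9, 19.7 and 20.5 CPM in WT DMSO, 21.7, 20.4 and 21.5 in WT JQ1, 23.8, 21.5 and 20.4 in KO DMSO and 31.5, 19.1 and 22.5 in KO JQ1, where KO JQ1 replicate 1 stood apart, and it passed in neither genotype.

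**Figure D3:**
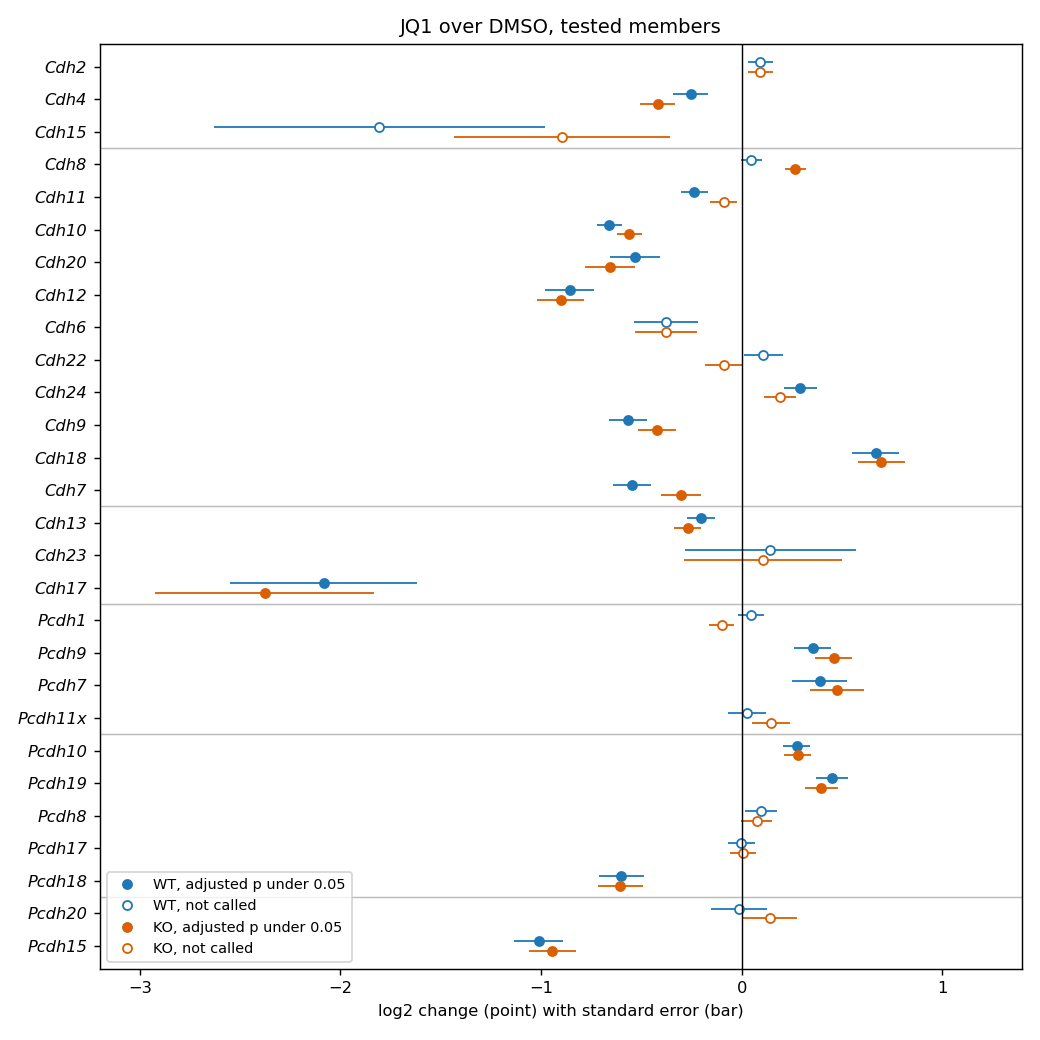
Change with JQ1 on the log2 scale (horizontal axis, point; bar, standard error) for the 28 tested members in WT (blue) and KO (orange); filled points have an adjusted p under 0.05, and grey lines part the structural classes. The WT and KO points of Cdh15 (-1.81 in WT, -0.89 in KO, wide bars) lie farthest from each other, with Cdh18 farthest right and Cdh17 farthest left; with ERCC scaling the WT points of Pcdh7, Pcdh9, Pcdh10, Pcdh19 and Cdh24 lie left of 0.

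Scaling to the ERCC spike-ins moved the median of all genes to -0.63 for JQ1 in WT, and 5 of the 6 members that rose in WT then had values below 0 (Pcdh7 -0.22, Pcdh9 -0.25, Pcdh10 -0.34, Pcdh19 -0.17 and Cdh24 -0.34), while Cdh18 stayed above 0 without passing. In KO the median moved to 0.07 and no member changed sign, but 14 of the 16 KO calls were lost and only Cdh17 and Pcdh15 were still called, where 9.85% of all genes were. How much spike-in each sample received is not stated in the labels. The ERCC share of counts varied within groups: 0.1185% to 0.1729% in WT DMSO, 0.1685% to 0.3484% in KO DMSO, 0.1734% to 0.2611% in WT JQ1 and 0.1928% to 0.2426% in KO JQ1. The rises in WT are therefore rises relative to other transcripts. The falls of the 11 members in WT kept their sign. As this scaling lowered the WT values as a whole, those falls could not have turned, so this does not test them.

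**Figure D4:**
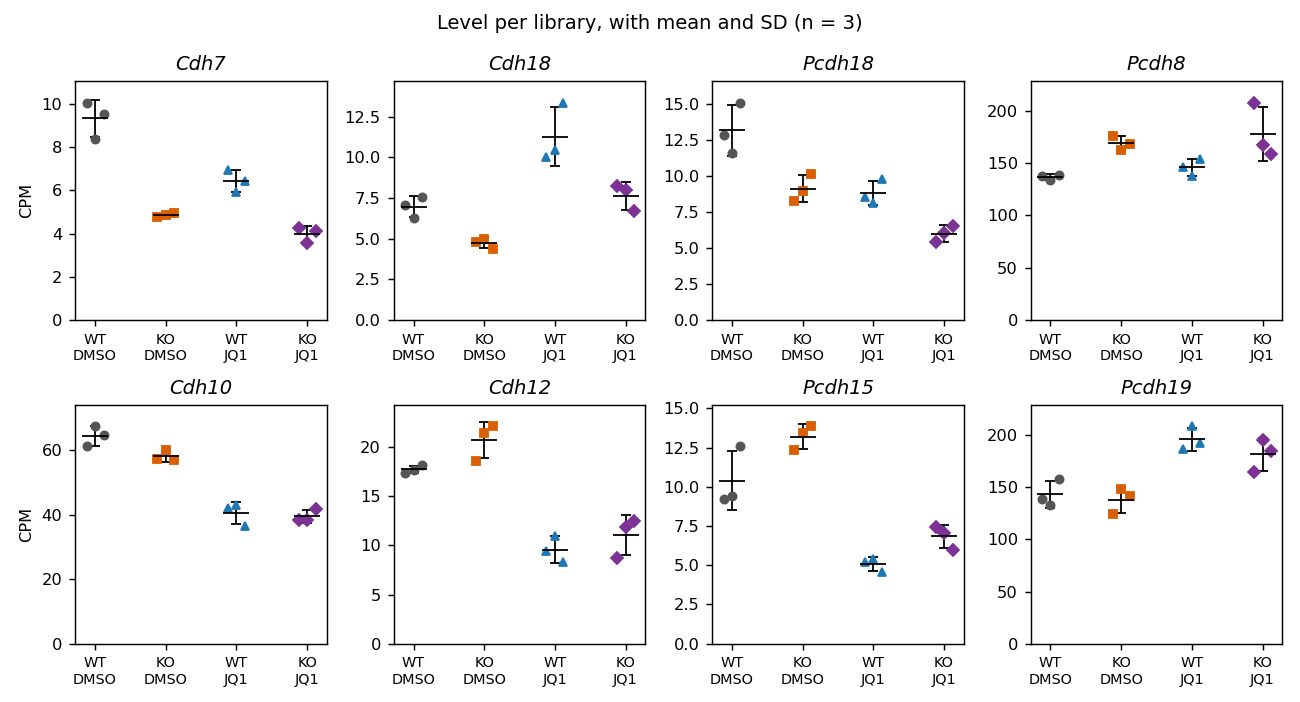
Level of 8 members in each library (vertical axis, TMM-scaled CPM from 0; each mark is 1 library, the long dash the group mean and the bar the SD, n = 3). Cdh7, Cdh18 and Pcdh18 are lower in KO under both treatments and Pcdh8 is higher, and Cdh10, Cdh12 and Pcdh15 are lower with JQ1 and Pcdh19 higher; with ERCC scaling the signs of Pcdh8 in DMSO (KO against WT) and of Pcdh19 in WT (JQ1 against DMSO) change.

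The last comparison tested whether the response to JQ1 differs between the genotypes. No member passed, and neither did any of the 15433 genes, with edgeR or with DESeq2. At an unadjusted p under 0.05 edgeR gave 355 genes (2.30%) and 1 member, Cdh8, whose response was 0.22 larger in KO (SE 0.07, unadjusted p = 0.00854, adjusted p = 0.9999). The calls of 15 members were shared by WT and KO in the same direction, with 2 in WT alone (Cdh11 and Cdh24), 1 in KO alone (Cdh8) and 10 in neither. WT and KO responses use different libraries, and over the 28 members they had a Pearson r of 0.942 and a Spearman rho of 0.941, as a description across genes. The 95% intervals leave room for differences: for Cdh7 the response in KO minus that in WT was 0.24 (from -0.06 to 0.54), for Cdh18 0.03 (from -0.33 to 0.38) and for Pcdh15 0.07 (from -0.29 to 0.43).

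Cdh6, Cdh9, Cdh10, Cdh12 and Cdh18 follow one another on mouse chromosome 15 in that order, with 0 other protein-coding genes between any adjacent pair in the RefSeq annotation of GRCm38.p6. JQ1 lowered the levels of Cdh9, Cdh10 and Cdh12 and raised that of Cdh18, their neighbour, in both genotypes, the last relative to other transcripts. In KO against WT, Cdh9 and Cdh18 were lower in DMSO while Cdh12, between Cdh10 and Cdh18, had 0.22 (adjusted p = 0.203). On chromosome 3, Pcdh10 and Pcdh18, with 1 protein-coding gene between them, went opposite ways with JQ1. On chromosome 14, Pcdh9 rose while its neighbour Pcdh20, and Pcdh17 and Pcdh8 farther along, did not pass. Over the 28 members the length of the gene on the genome (log10) and the JQ1 response had a Pearson r of 0.0843 in WT and 0.0523 in KO, with a Spearman rho of 0.00493 and 0.0142. The mean CPM (log10) and the WT response had a Pearson r of 0.617 and a Spearman rho of 0.381, with the low-count Cdh15 and Cdh17 among the points; all values come from the same libraries.

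**Figure D5:**
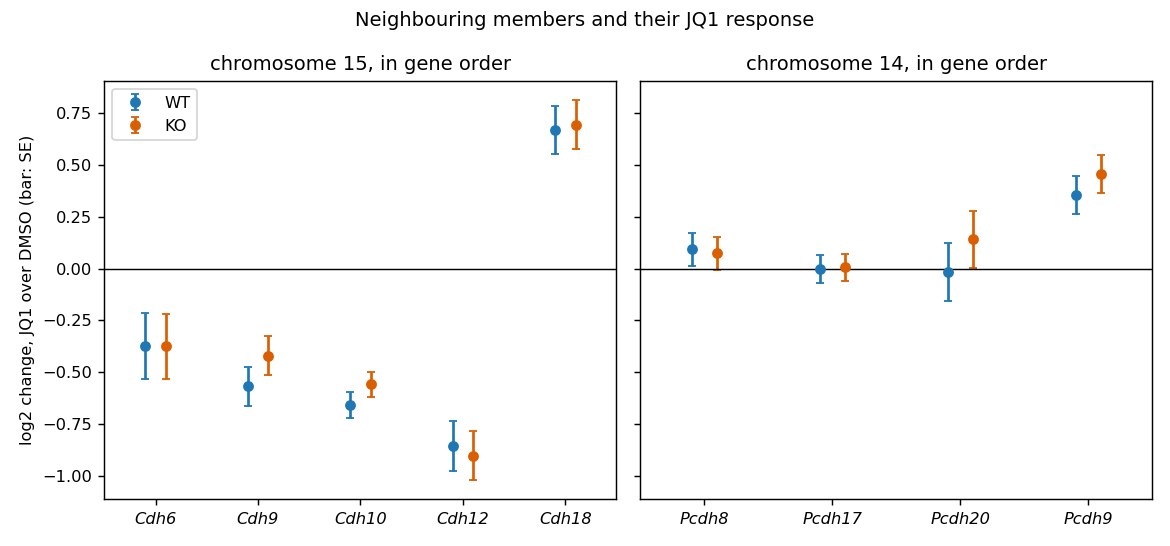
Change with JQ1 on the log2 scale (vertical axis, point; bar, standard error) for members that neighbour one another on chromosomes 15 and 14, placed in gene order with no scale of distance, in WT (blue) and KO (orange). Cdh6, Cdh9, Cdh10 and Cdh12 lie below 0 and Cdh18 above it at 0.67 and 0.70; with ERCC scaling the WT value of Pcdh9 is below 0.

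RefSeq promoter sequences (GRCm38.p6, 250 bases before to 50 after a start site) were found for 22 of the 35 members. They are shown for the 3 rising and the 3 falling members with the largest WT change among those that passed in both genotypes and have such an entry, which leaves out Cdh17. The rule was set after the values were seen, and it fixes the direction within each set, so the sequences are given as context for the genes with the largest changes. Capitals mark each CG dinucleotide, also a choice made after the base composition had been seen. The sequences of Cdh18, Cdh12 and Pcdh15 lie far inside the gene models used here for length. Those models start at 22549022, 20449265 and 73099342 on their chromosomes, on the plus strand. Which start sites these neurons use was not tested.

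Among those that rose:
Cdh18 (GRCm38.p6, chr15:23036213-23036512, plus strand): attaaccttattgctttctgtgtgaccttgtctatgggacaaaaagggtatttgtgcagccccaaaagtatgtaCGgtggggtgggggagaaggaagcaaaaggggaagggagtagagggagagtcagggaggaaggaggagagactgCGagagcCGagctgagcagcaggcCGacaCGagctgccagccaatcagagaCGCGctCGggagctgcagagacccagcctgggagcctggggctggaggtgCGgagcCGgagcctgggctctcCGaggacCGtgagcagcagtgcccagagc
Pcdh19 (GRCm38.p6, chrX:133688944-133689243, minus strand): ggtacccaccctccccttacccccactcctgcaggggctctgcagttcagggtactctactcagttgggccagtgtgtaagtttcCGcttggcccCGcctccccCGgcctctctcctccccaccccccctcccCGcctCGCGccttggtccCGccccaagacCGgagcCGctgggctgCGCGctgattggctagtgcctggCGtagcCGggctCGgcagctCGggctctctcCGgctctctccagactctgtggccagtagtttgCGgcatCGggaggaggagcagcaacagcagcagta
Pcdh7 (GRCm38.p6, chr5:57717831-57718130, plus strand): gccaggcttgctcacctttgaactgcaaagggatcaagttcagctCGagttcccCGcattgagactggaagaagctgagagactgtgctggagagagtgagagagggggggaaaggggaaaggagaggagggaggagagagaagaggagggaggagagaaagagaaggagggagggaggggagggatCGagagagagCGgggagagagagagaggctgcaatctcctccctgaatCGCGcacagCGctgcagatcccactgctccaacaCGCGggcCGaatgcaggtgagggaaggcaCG
Among those that fell:
Pcdh15 (GRCm38.p6, chr10:73821617-73821916, plus strand): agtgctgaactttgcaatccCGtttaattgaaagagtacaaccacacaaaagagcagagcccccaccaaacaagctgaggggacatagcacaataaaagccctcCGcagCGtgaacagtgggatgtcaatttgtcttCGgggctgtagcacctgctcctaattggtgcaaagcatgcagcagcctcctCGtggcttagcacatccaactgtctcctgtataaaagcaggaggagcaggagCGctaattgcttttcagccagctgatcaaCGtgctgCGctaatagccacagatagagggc
Cdh12 (GRCm38.p6, chr15:21111202-21111501, plus strand): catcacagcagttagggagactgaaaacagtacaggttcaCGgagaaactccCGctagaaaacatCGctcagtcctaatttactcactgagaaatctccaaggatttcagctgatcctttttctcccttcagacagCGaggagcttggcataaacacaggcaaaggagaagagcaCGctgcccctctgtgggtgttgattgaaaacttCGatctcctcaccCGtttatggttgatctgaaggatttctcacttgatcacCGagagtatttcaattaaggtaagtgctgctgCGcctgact
Cdh10 (GRCm38.p6, chr15:18820079-18820378, plus strand): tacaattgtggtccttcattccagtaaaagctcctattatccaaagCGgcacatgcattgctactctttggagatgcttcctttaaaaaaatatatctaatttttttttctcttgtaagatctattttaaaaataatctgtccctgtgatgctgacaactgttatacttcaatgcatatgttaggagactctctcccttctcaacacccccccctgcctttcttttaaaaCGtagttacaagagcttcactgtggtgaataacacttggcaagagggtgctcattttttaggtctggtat

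The printed sequences of Cdh18, Pcdh19 and Pcdh7 hold 12, 18 and 11 CG dinucleotides and 60.3%, 67.7% and 59.3% G or C, and those of Pcdh15, Cdh12 and Cdh10 hold 8, 9 and 2 and 50.7%, 46.7% and 37.7%. Over all 5 members that rose in both genotypes and have a sequence, the CG count ran from 11 to 24 (median 18); over the 7 that fell it ran from 2 to 23 (median 9), and the median of all 32851 promoters of this length is 7. Pcdh18, with 23, Cdh20 and the first of the 3 listed for Cdh7, with 18 each, fell with counts as high as those of rising members, so the sets overlap, and no test was made. A further 5 motifs, also chosen with the values known, were searched on both strands, each on its own whether or not it overlapped another. GGGCGG was present in 2 of the 5 promoters of rising and 1 of the 7 of falling members (35.7% of all promoters), TATAAA in 0 and 1 (13.6%), CACGTG in 0 and 0 (7.2%), TGACGTCA in 0 and 0 (1.8%) and CCAAT in 4 and 5 (37.4%).

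Genes of the machinery that cadherins bind were read in the same fits, in which JQ1 gave calls for 55.1% of all genes in WT and 57.1% in KO, and genotype for 15.0% in DMSO and 8.97% in JQ1. Of 10 catenin and p120 family genes, 3 rose and 1 fell with JQ1 in WT, and 2 rose and 1 fell in KO, which is a smaller share than that of all genes. Ctnnb1 (beta-catenin, which binds the tail of classical cadherins) read 719.8, 728 and 748 CPM in WT DMSO and 1033, 1068 and 1011 in WT JQ1, a rise of 0.50 (SE 0.05, adjusted p = 1.55e-06), and rose by 0.59 in KO. Pkp4 (a p120-related armadillo protein) rose by 0.66 in WT and 0.68 in KO, and Jup (plakoglobin, the close relative of beta-catenin) fell by 0.47 and 0.58. In KO against WT, Jup was higher by 0.27 in DMSO and 0.16 in JQ1, and Ctnna1 (alpha-E-catenin) lower by 0.40 in DMSO.

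Of 15 junction partners and cadherin-cleaving proteases, 8 rose and 3 fell with JQ1 in WT, and 8 rose and 2 fell in KO; Adam10, the sheddase of N-cadherin, rose by 0.46 and 0.52, and Furin, which cleaves cadherin precursors, fell by 0.24 and 0.39. In KO against WT 3 of the 15 were higher in both media and 0 lower: Pvrl1 (0.48 in DMSO) and Pvrl3 (0.20), both nectins, and Furin (0.32). Of 11 tested Fat, Dachsous, Celsr and calsyntenin genes, which are large or distant cadherin relatives and a regulator of them, 5 were higher and 2 lower in KO DMSO, among them Clstn3 (0.31) and Celsr1 (-0.53); with JQ1 4 rose and 1 fell in WT and 3 rose and 2 fell in KO. Of the 9 WAVE complex genes, which include Cyfip1 and Cyfip2, 0 passed between the genotypes with edgeR in either medium (1 at an unadjusted p under 0.05 in each; DESeq2 called 1 in DMSO and 0 in JQ1), and with JQ1 1 rose and 2 fell in WT, and 4 rose and 2 fell in KO. With ERCC scaling the genes called higher in KO DMSO in these 4 lists (1, 3 and 5 in the first 3) and those that rose with JQ1 in WT had values below 0, Pkp4 (0.03) excepted. No gene called lower with JQ1 in WT or KO changed sign. In WT this scaling lowered the values as a whole, so a fall could not turn there.

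Marker lists were read for JQ1 as well, against the 55.1% of all genes called in WT and 57.1% in KO. In WT the called share of each list given here lies below it except for the microglial list. In KO the fibroblast, microglial and deep-layer lists (5 of 8, 5 of 7 and 5 of 8) lay above it. Of lists not described here, the pan-neuronal (6 of 8) and Cajal-Retzius lists (5 of 8) lay above it in WT. Of the 10 astrocyte markers 5 fell in WT (sum 1413 to 1711 CPM in DMSO, 1074 to 1405 in JQ1) and 4 in KO (981 to 1330.0, 636 to 1030), none rose, and of the 8 fibroblast and pericyte markers 4 fell in WT (29.1 to 38.1, 16.0 to 21.2) and 5 in KO (15.2 to 18.7, 10.03 to 11.4). Of 7 tested microglial markers 4 fell in WT and 5 in KO. Of 8 oligodendrocyte lineage markers 3 fell and 1 rose in WT and 3 fell in KO, with medians of -0.48 and -0.38. Deep-layer markers gave 1 higher and 3 lower in WT, with sums of 518 to 561 and 516 to 543 CPM. No marker that fell changed sign with ERCC scaling, and in WT the 1 deep-layer and the 1 oligodendrocyte marker that rose did. The falls in WT could not change sign, because that scaling lowered the WT values as a whole. Their part in the cadherin changes was not tested.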

How the data were processed

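The 35 genes, the gene lists and the tests were chosen with earlier results of these data known, so no list is independent evidence of its direction.

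RNA was sequenced as 75 bp single reads from TruSeq libraries, per the labels' protocols. Per the submitters' processing notes, TopHat2 2.1.0, SAMtools 0.1.19, HTSeq 0.6.1, DESeq2 and DESeq were used with the mm9 genome; their order, the strand setting, counting mode and annotation are not given in the sources at hand, and genes overlapping others carry uncertain values. The authors deposited raw read counts per gene in 12 columns, while the labels list 18 samples, with 92 ERCC spike-in rows that were left out of library sizes here. The authors' deposited DESeq2 table of KO against WT gives a mean signal (baseMean), log2 changes, a Wald score and p-values, and was only compared with the results here.

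The counts went through edgeR 4.0.16 in R 4.3.3, with filterByExpr (minimum count 10, by group), TMM scaling, 1 mean per group over 12 libraries (8 residual degrees of freedom), quasi-likelihood F tests for 5 comparisons, and Benjamini-Hochberg adjustment over 15433 genes, with a call at an adjusted p under 0.05. The fit was tested on simulated data. CPM uses TMM-scaled library sizes, and exon lengths come from GENCODE gene models of GRCm38, a later build than mm9, as do the promoters and gene order from RefSeq. Within groups, replicate counts had chi-square values of 4.67 to 37.8 for each degree of freedom, above counting noise. Values per library are given for members called between genotypes, for the 6 rising and 6 falling members of largest change with JQ1 in WT at 1 CPM or more, and for the highest member of each class; others named with values were picked after these were seen. Same-numbered KO libraries deviated together (correlations 0.212 to 0.287 between DMSO and JQ1), as the WT ones did less (0.0941 to 0.158). Between WT and KO these correlations ran from -0.18 to 0.0112 in DMSO and from -0.016 to 0.116 in JQ1. Fits with a block for the replicate number, or for each genotype and number, are reported as alternatives. Other alternatives are other scaling, DESeq2 1.42.0, no filter and leaving out libraries.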

Additional observations from a re-analysis of the deposited data

How the results depend on the processing

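Leaving out each library in turn gave 4 to 10 members called in KO against WT in DMSO, 3 to 6 in JQ1, 15 to 18 for JQ1 in WT, 16 to 18 for JQ1 in KO and 0 for the difference of responses; the count of 4 in DMSO came without WT DMSO replicate 1 and without KO DMSO replicate 1, where the share of all genes called also fell, from 15.0% to 7.39% and 5.77%. ERCC scaling gave 22, 0, 13 and 2 members called in the first 4 comparisons, against 9, 4, 17 and 16, where it called 77.7%, 0.149%, 37.9% and 9.85% of all genes, with no member called as higher. Among members called with either scaling, these changed sign in KO against WT in DMSO: Pcdh17 (-0.65), Pcdh8 (-0.51), Cdh6 (-0.72), Pcdh20 (-0.80), Cdh20 (-0.74) and Pcdh1 (-0.50). Of them only Pcdh8 and Pcdh1 had been called with TMM. For JQ1 in WT, Pcdh7 (-0.22), Pcdh10 (-0.34), Pcdh19 (-0.17), Pcdh9 (-0.25) and Cdh24 (-0.34), all called with TMM, changed sign. Changes of sign in members called with neither scaling are not listed. In KO against WT in JQ1, 8 members were called without a filter on low counts (6.35% of all genes), 7 without both KO libraries numbered 3 (15.8%) and 7 with DESeq2 (15.1%), against 4 (8.97%). The fit with the replicate block called 6 members there (12.7% of all genes), adding Cdh4 and Pcdh10. That block treats same-numbered WT and KO libraries as belonging together, which the labels do not state. Another fit for JQ1 used a block for each genotype and replicate number. It assumes that same-numbered libraries of a genotype belong together, which the labels do not state. That fit called 19 members in WT (60.2% of all genes), adding Cdh15 and Cdh6. In KO it called 19 (62.8%), adding Cdh15, Cdh6 and Cdh24. The calls of Cdh7 and Cdh18 between genotypes in DMSO and JQ1, and of Pcdh18 in DMSO, held under every alternative run, ERCC scaling left aside. With JQ1 the same was true in both genotypes for the falls of Cdh9, Cdh10, Cdh12, Cdh20, Pcdh15 and Pcdh18. It was also true for the rises of Cdh18, Pcdh9, Pcdh10 and Pcdh19. The fall of Cdh17, at few counts, was called wherever Cdh17 was tested. Because Cdh17 passed the filter only through DMSO libraries, these repeated calls do not support its fall. Depth limits Cdh15, Cdh17, Cdh23 and the 7 members that were not tested.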
